A study of Mus musculus with 8 samples.

Results

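The 9 genes described here regulate or mark the oligodendrocyte lineage in the mouse spinal cord. They are Olig1, Olig2, Nkx2-2, Nkx6-2, Myrf, Zfp488, Tcf7l2, Pdgfra and Lhfpl3, chosen by name from 21938 coding genes of the GENCODE M21 annotation (mm10). Oligodendrocytes make the myelin of the central nervous system. They arise from progenitors that carry the PDGF receptor alpha and express Olig2, and later factors such as Myrf switch on the myelin genes. SOX9 is a transcription factor needed for the switch from making neurons to making glia in the developing cord. In the adult cord it is best known from astrocytes and ependymal cells, while its relative SOX10 is the SOX protein of mature oligodendrocytes.

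SOX9 was mapped by CUT&Tag, in which an antibody guides a transposase to the protein so that DNA close to it is cut out and sequenced. Nuclei came from spinal cords of wild-type adult mice, either uninjured or 1 day after a contusion (1 d.p.i.), sorted on the DNA stain 7AAD according to the sample labels, while the paper's methods refer to a sort in which antibodies to NEUN or SOX10 were used as well, so whether these nuclei were selected for a cell type is not certain. Each condition had 1 male (M) and 1 female (F) sample, from different animals, and each sample gave a SOX9 library and a control that received the secondary antibody without the SOX9 antibody. From injured cords the segment holding the lesion was used, and from uninjured cords the segment of corresponding height. The 8 libraries thus fell into 4 groups of 2.

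The SOX9 libraries held 1891276 (uninjured M), 7216730 (uninjured F), 2529356 (1 d.p.i. M) and 2385009 (1 d.p.i. F) fragments. At these depths a 2-kb window at the genome's mean coverage is crossed by 1.48, 5.74, 2.0 and 1.88 fragments, respectively, so single windows are measured coarsely. Levels are coverage per base pair divided by the mean of the autosomes in the same library, so that 1 is the genome's average. Windows of 3 kinds were read for each gene, namely 1 kb to each side of the start site, the gene body, and the flanks of 20 kb before and after it. In such bulk samples, a difference in the number of cells that carry SOX9 at a gene and a difference in SOX9 per cell cannot be told apart.

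The secondary-only controls were far shallower and gave no separate background at these genes. Over the gene bodies and flanks of the 9 genes they held 23 (uninjured M), 25 (uninjured F), 50 (1 d.p.i. M) and 17 (1 d.p.i. F) fragments. Their coverage there was 2.49, 1.04, 2.26 and 2.87 times the respective library mean, a mean of 2.16 ± 0.79 (SD, n = 4). With the 4 controls pooled, 115 fragments gave 1.94 times the mean, with an exact 95% Poisson interval of 1.60 to 2.33 that covers counting error only. The SOX9 libraries had 1.71 (uninjured M), 1.87 (uninjured F), 1.92 (1 d.p.i. M) and 1.81 (1 d.p.i. F) times their means over the same stretches, which lies within that interval. At the start-site windows the pooled controls had 7.75 times the mean from only 9 fragments (95% Poisson interval 3.54 to 14.7). The SOX9 libraries had 6.64, 8.48, 8.30 and 5.88 there in the same order, also within the interval. Of 111 control fragments in the 9 loci that stood alone, 102 (91.9%) had the start and end of a fragment in a SOX9 library. Genome-wide this share was 82.3% to 93.5% by control, and 0.0228% to 0.0428% after a shift of 1000 bp. How many control fragments were carried over between libraries by index mix-ups, and how many were cut without the SOX9 antibody, was not tested. A level over control was therefore not computed, and the levels given here may include signal that does not depend on the SOX9 antibody.

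Olig2 and Olig1, basic helix-loop-helix factors, lie side by side on chromosome 16, and their start sites were among the better covered of the 9 genes. Olig2 is required to specify oligodendrocytes and motor neurons, and Olig1 takes part in oligodendrocyte maturation and myelin repair. At the Olig1 start site (gene at chr16:91269772-91271933) the level was 15.4 in uninjured M, 22.5 in uninjured F, 22.6 in 1 d.p.i. M and 19.4 in 1 d.p.i. F. These levels rest on 26, 162, 58 and 44 fragments, and their mean of 20.0 ± 3.41 (SD, n = 4) was at the 95.4th percentile of all coding genes. The 4 libraries overlapped between conditions. At the Olig2 start site (gene at chr16:91225457-91228677) the level was 13.5 in uninjured M, 14.6 in uninjured F, 16.3 in 1 d.p.i. M and 7.27 in 1 d.p.i. F, with a mean of 12.9 ± 3.94 (SD, n = 4). The F library at 1 d.p.i. was the low one, and the conditions overlapped again.

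Over the gene bodies the pair differed. The Olig1 body had a level of 10.0 in uninjured M and 12.6 in uninjured F, against 17.5 in 1 d.p.i. M and 18.8 in 1 d.p.i. F. The uninjured pair lay below the 1 d.p.i. pair without overlap, with a log2 change of 0.67 and a standard error of 0.44 (95% interval −0.41 to 1.74). This change did not pass the test across all genes (limma, adjusted p = 1.00). Averaged over the 4 libraries the Olig1 body was at the 99.2nd percentile of coding genes. This body is only 2162 bp long and its first 1 kb also lies in the start-site window, so the readings are not independent. In long genes the start site is a smaller part of the body, and the percentile does not allow for length. The Olig2 body had 4.20 and 7.07 in uninjured M and F and 6.07 and 3.54 in 1 d.p.i. M and F, which overlapped, with a log2 change of −0.21 ± 0.40 (SE).

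The flanks of the 2 genes end 1094 bp apart, so the stretch between them was read almost without gaps. The Olig1 flanks had 4.34 (uninjured M), 4.75 (uninjured F), 6.63 (1 d.p.i. M) and 5.45 (1 d.p.i. F), again with both 1 d.p.i. libraries above both uninjured ones. The log2 change of 0.37 ± 0.36 (SE) did not pass the test (limma, adjusted p = 1.00). The Olig2 flanks had 3.78, 3.55, 3.82 and 3.20 in the same order, a narrow range that overlapped between conditions.

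In 1-kb tiles the pair showed separate high points away from the start sites. The highest tile of the Olig1 locus held its start site (chr16:91269001-91270000), at 23.4 and 34.2 in uninjured M and F and 26.2 and 21.8 in 1 d.p.i. M and F. Next came a tile whose summit lay 6423 bp before the start site, in an exon of the gene model Gm37016, at 17.1 and 14.4 in uninjured M and F and 37.5 and 23.9 in 1 d.p.i. M and F. At 1 d.p.i. this tile exceeded the start-site tile in both libraries. A tile with its summit 11005 bp after the start site, in an intron of the gene model Gm15966, was even across the libraries at 14.6, 20.9, 18.2 and 19.9. The highest tile of the Olig2 locus also held the start site (chr16:91225001-91226000), at 22.1 and 21.7 in uninjured M and F and 20.2 and 10.4 in 1 d.p.i. M and F. An intergenic tile with its summit 8240 bp after the Olig2 start site followed, at 17.2, 17.2, 14.4 and 10.6. In both tiles the 1 d.p.i. pair was below the uninjured pair without overlap, with log2 changes of −0.58 ± 0.61 and −0.46 ± 0.60 (SE) that did not pass (limma, adjusted p = 1.00).

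**Figure D1:**
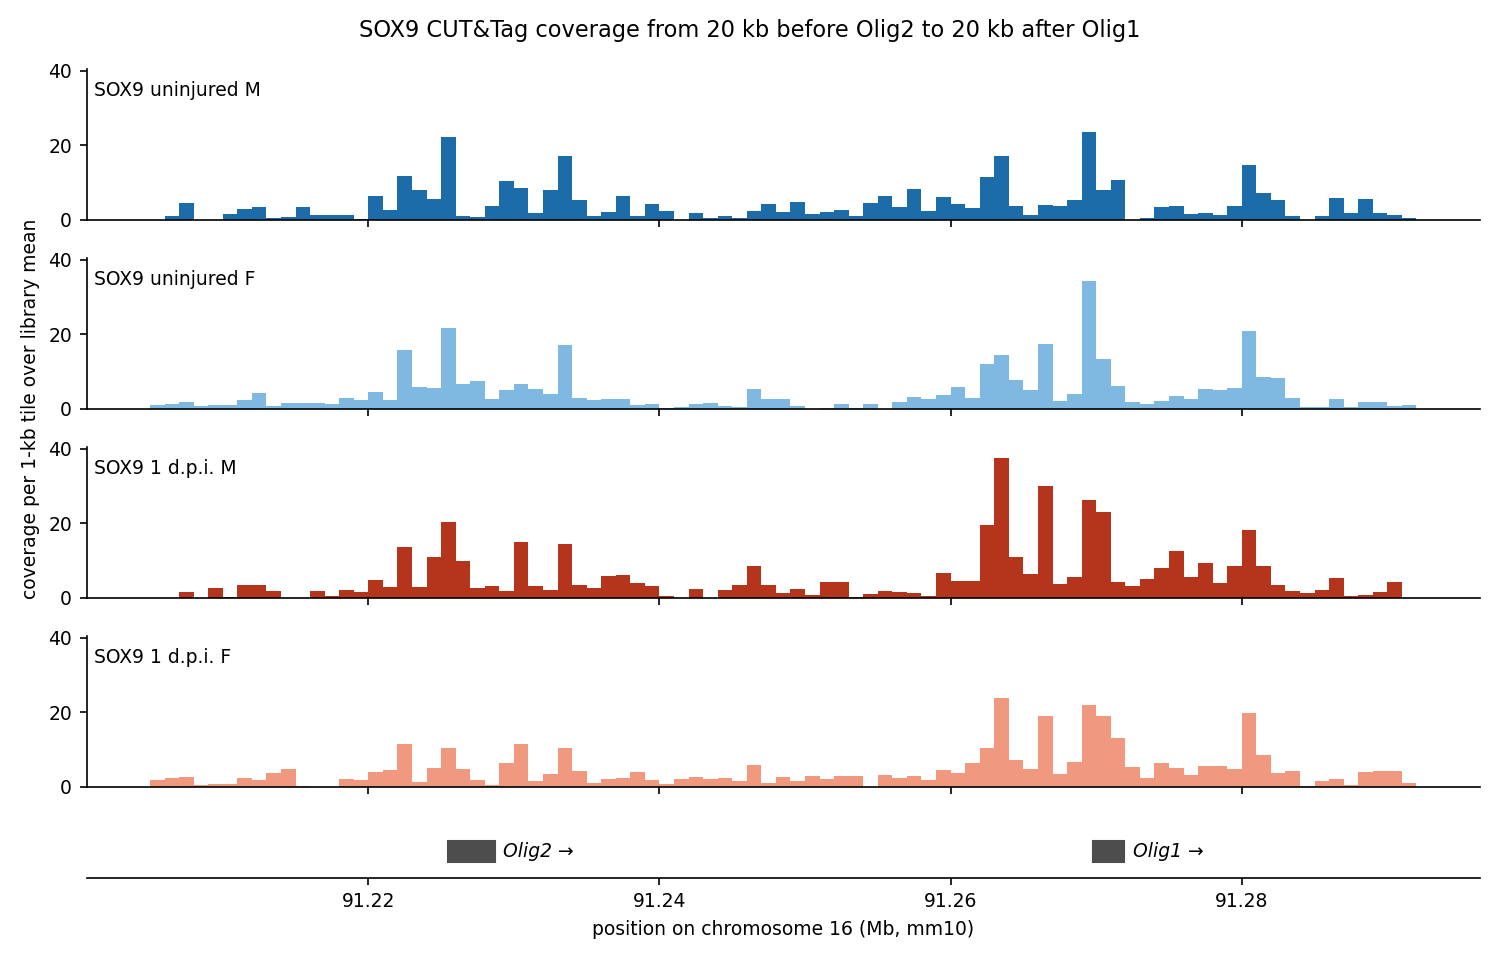
Coverage in 1-kb tiles over the library mean (vertical axis, the same in each track) along chromosome 16 in Mb from 20 kb before Olig2 to 20 kb after Olig1, 1 track for each SOX9 library, with gene bodies as grey boxes and arrows for the direction of transcription. The start-site tile of Olig1 is the highest in both uninjured libraries, and the tile with its summit 6423 bp before the Olig1 start site reaches 37.5 in 1 d.p.i. M.

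One intergenic tile before Olig1, chosen after its values were seen, had the lowest unadjusted p of the pair's loci. It lies at chr16:91266001-91267000 with its summit 3619 bp before the start site, and had 4.06 in uninjured M, 17.3 in uninjured F, 29.9 in 1 d.p.i. M and 18.9 in 1 d.p.i. F. The uninjured libraries differed from each other by more than the uninjured F and 1 d.p.i. F libraries did. The log2 change of 1.43 ± 0.60 (SE) did not pass across all tiles (limma, adjusted p = 1.00). Without the uninjured F library, the deepest of the 4, it was 2.41 and passed (limma, adjusted p = 0.0083), with uninjured M as the lone uninjured library. In that setting 617 of the 150752 tested tiles passed, against 70 with the 4 libraries, so passing there was not particular to this tile. A tile just before Olig2 (chr16:91223001-91224000), also chosen after its values were seen, went the other way, with 7.99 and 5.73 in uninjured M and F and 2.93 and 1.34 in 1 d.p.i. M and F. Its log2 change of −1.54 ± 0.70 (SE) did not pass either (limma, adjusted p = 1.00).

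Nkx2-2 and Nkx6-2 encode homeodomain factors that pattern the ventral cord and act later in oligodendrocyte differentiation. The Nkx2-2 start site (gene at chr2:147177546-147194243, minus strand) was covered thinly, at 1.14 (uninjured M), 2.63 (uninjured F), 3.48 (1 d.p.i. M) and 1.58 (1 d.p.i. F), from 3, 17, 8 and 3 fragments. Its mean of 2.21 ± 1.05 (SD, n = 4) was at the 40.6th percentile of coding genes. The gene body was higher, at 4.62, 7.10, 5.90 and 4.17 in the same order, at the 90.8th percentile. The highest tiles of the locus were neighbours in an intron. The first of them, at chr2:147180001-147181000, had 10.8 in uninjured M, 40.0 in uninjured F, 20.0 in 1 d.p.i. M and 10.1 in 1 d.p.i. F, so that uninjured F alone stood far above the others. The annotation places the start of the transcript with the longest coding sequence 7839 bp downstream of the gene record's start, and the level there was 1.92, 5.16, 3.33 and 3.58.

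Nkx6-2 was covered more evenly across its windows. Its start site (gene at chr7:139579376-139582797, minus strand) had 5.76 (uninjured M), 10.2 (uninjured F), 9.12 (1 d.p.i. M) and 5.26 (1 d.p.i. F), at the 73.7th percentile. The body had 4.96, 7.92, 5.72 and 4.18, and the flanks 4.07, 5.21, 4.38 and 3.82, in the same order. In each of the 3 windows uninjured F was the highest library and 1 d.p.i. F the lowest, and the conditions overlapped. The highest tile of the locus was not at the start site but had its summit 5469 bp downstream, over an exon of the neighbouring gene Inpp5a (chr7:139577001-139578000). It had 7.30, 12.6, 12.6 and 17.6 in the same order of libraries. Chosen for their unadjusted p, tiles in Inpp5a starting at chr7:139560001, chr7:139573001 and chr7:139574001 were lower at 1 d.p.i. without overlap, with log2 changes of −1.71, −1.62 and −1.35 that did not pass (limma, adjusted p = 1.00).

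Myrf, Zfp488 and Tcf7l2 act in differentiating oligodendrocytes. Myrf is the membrane-bound factor that drives the myelin genes, Zfp488 is a zinc finger protein that cooperates with Olig2, and Tcf7l2 is an effector of Wnt signalling that peaks in newly forming oligodendrocytes. The Myrf start site (gene at chr19:10208272-10240748, minus strand) had 9.77 in uninjured M and 15.1 in uninjured F against 7.72 in 1 d.p.i. M and 8.62 in 1 d.p.i. F. Both libraries at 1 d.p.i. were below both uninjured ones, and the log2 change of −0.55 ± 0.66 (SE) did not pass the test (limma, adjusted p = 1.00). The Myrf body did not follow the start site, with 7.23 and 9.63 in uninjured M and F and 9.80 and 8.62 in 1 d.p.i. M and F. It was at the 96.9th percentile of coding genes.

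The Myrf flanks were the highest of the 9 genes, at 4.67 (uninjured M), 7.91 (uninjured F), 7.00 (1 d.p.i. M) and 6.23 (1 d.p.i. F), but they hold the start sites of Fen1 and Tmem258. The highest tile of the locus lies there, at chr19:10204001-10205000, with its summit in an intron of Tmem258 and 718 bp from the Fen1 start site. It had 16.2, 36.3, 39.6 and 29.7 in the same order. With 1 kb around other coding start sites left out, a choice made after the data were seen, the mean level of the Myrf flanks was 5.65 in place of 6.45. Within Myrf itself the highest tile was in an intron with its summit 7995 bp after the start site (chr19:10232001-10233000), at 17.5 and 29.4 in uninjured M and F and 33.1 and 20.2 in 1 d.p.i. M and F. Another tile of Myrf (chr19:10223001-10224000), chosen after its values were seen, had 1.05 in uninjured M, 7.81 in uninjured F, 13.2 in 1 d.p.i. M and 8.49 in 1 d.p.i. F. Its log2 change of 1.62 did not pass across all tiles (limma, adjusted p = 1.00), and without uninjured F it was 2.83 and passed (limma, adjusted p = 0.044), in the same setting in which 617 tiles passed. A tile of the Myrf flank over an exon of Fads1 (chr19:10194001-10195000), chosen in the same way, went the other way, with 7.52 and 5.61 in uninjured M and F and 1.14 and 1.11 in 1 d.p.i. M and F. Its log2 change of −2.11 ± 0.94 (SE) did not pass (limma, adjusted p = 1.00).

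The Zfp488 start site (gene at chr14:33967070-33978764, minus strand) had 5.47 in uninjured M and 3.66 in uninjured F against 2.22 in 1 d.p.i. M and 3.54 in 1 d.p.i. F. As at Myrf, both libraries at 1 d.p.i. were below both uninjured ones, and the log2 change of −0.59 ± 0.65 (SE) did not pass (limma, adjusted p = 1.00). These levels rest on only 8, 20, 4 and 7 fragments. The body was nearly the same in the 4 libraries, at 2.92, 3.4, 3.32 and 2.87, and the log2 change of −0.03 had a 95% interval of −0.58 to 0.53. The highest tile was in an intron with its summit 3844 bp after the start site (chr14:33974001-33975000), at 3.73, 8.80, 9.27 and 5.98.

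The Tcf7l2 start site (gene at chr19:55741820-55933654) had 2.41 in uninjured M and 3.13 in uninjured F against 4.87 in 1 d.p.i. M and 3.63 in 1 d.p.i. F. It was the only start site tested at which the 1 d.p.i. pair lay above the uninjured pair without overlap, and the log2 change of 0.54 ± 0.66 (SE) did not pass (limma, adjusted p = 1.00). Over the long gene body the level was close to the genome's average, at 1.21, 0.99, 1.11 and 1.29. The highest of its tiles was in an intron, with the summit 46676 bp after the start site (chr19:55788001-55789000), at 7.75, 9.57, 7.92 and 5.24 in the same order.

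Pdgfra and Lhfpl3 mark oligodendrocyte progenitors. Pdgfra is the receptor for the growth factor that keeps progenitors dividing, and Lhfpl3 encodes a membrane protein of the tetraspan type. The Pdgfra start site (gene at chr5:75152292-75198215) had the lowest coverage of the 9, at 0 in uninjured M, 0.36 in uninjured F, 1.04 in 1 d.p.i. M and 1.69 in 1 d.p.i. F, from 0, 2, 2 and 4 fragments. The libraries at 1 d.p.i. were the higher ones, but the mean of 0.77 was under the minimum of 1 and the window was not tested. The Pdgfra body had 0.86 and 1.04 in uninjured M and F and 1.29 and 1.1 in 1 d.p.i. M and F, with no overlap and a log2 change of 0.22 ± 0.20 (SE) that did not pass (limma, adjusted p = 1.00). The Lhfpl3 start site (gene at chr5:22746059-23275597) had 6.26, 4.13, 7.30 and 1.96, which overlapped, and its body and flanks were below the genome's average in the 4 libraries. The highest tiles of the 2 loci were within the genes, at chr5:75156001-75157000 in Pdgfra (0.80, 3.93, 10.1 and 3.55) and at the start site of Lhfpl3, chr5:22746001-22747000 (12.1, 5.48, 8.81 and 3.35).

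Ordered by mean level at the start site, the 9 genes ran from Olig1 (20.0) through Olig2 (12.9), Myrf (10.3), Nkx6-2 (7.59), Lhfpl3 (4.91), Zfp488 (3.72), Tcf7l2 (3.51) and Nkx2-2 (2.21) to Pdgfra (0.77). Between no neighbours in this order were the 4 libraries of one gene all above the 4 of the next. Over gene bodies the order was Olig1 (14.7), Myrf (8.82), Nkx6-2 (5.70), Nkx2-2 (5.45), Olig2 (5.22), Zfp488 (3.13), Tcf7l2 (1.15), Pdgfra (1.07) and Lhfpl3 (0.86). There Olig1 was above Myrf, Olig2 above Zfp488 and Zfp488 above Tcf7l2 in every library against every library. The bodies differ in length, from 2162 bp at Olig1 to 529539 bp at Lhfpl3, which this order does not allow for. In the flanks the order was Myrf (6.45), Olig1 (5.29), Nkx6-2 (4.37), Olig2 (3.59), Zfp488 (1.36), Nkx2-2 (0.99), Tcf7l2 (0.92), Lhfpl3 (0.79) and Pdgfra (0.78). Nkx6-2 and Olig2 were only just separated, and Olig2 and Zfp488 by more, while the other neighbours overlapped. The median over all coding genes was 2.59, 4.28, 3.32 and 3.01 at start sites in uninjured M, uninjured F, 1 d.p.i. M and 1 d.p.i. F, and 1.34, 1.46, 1.40 and 1.39 over gene bodies.

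**Figure D2:**
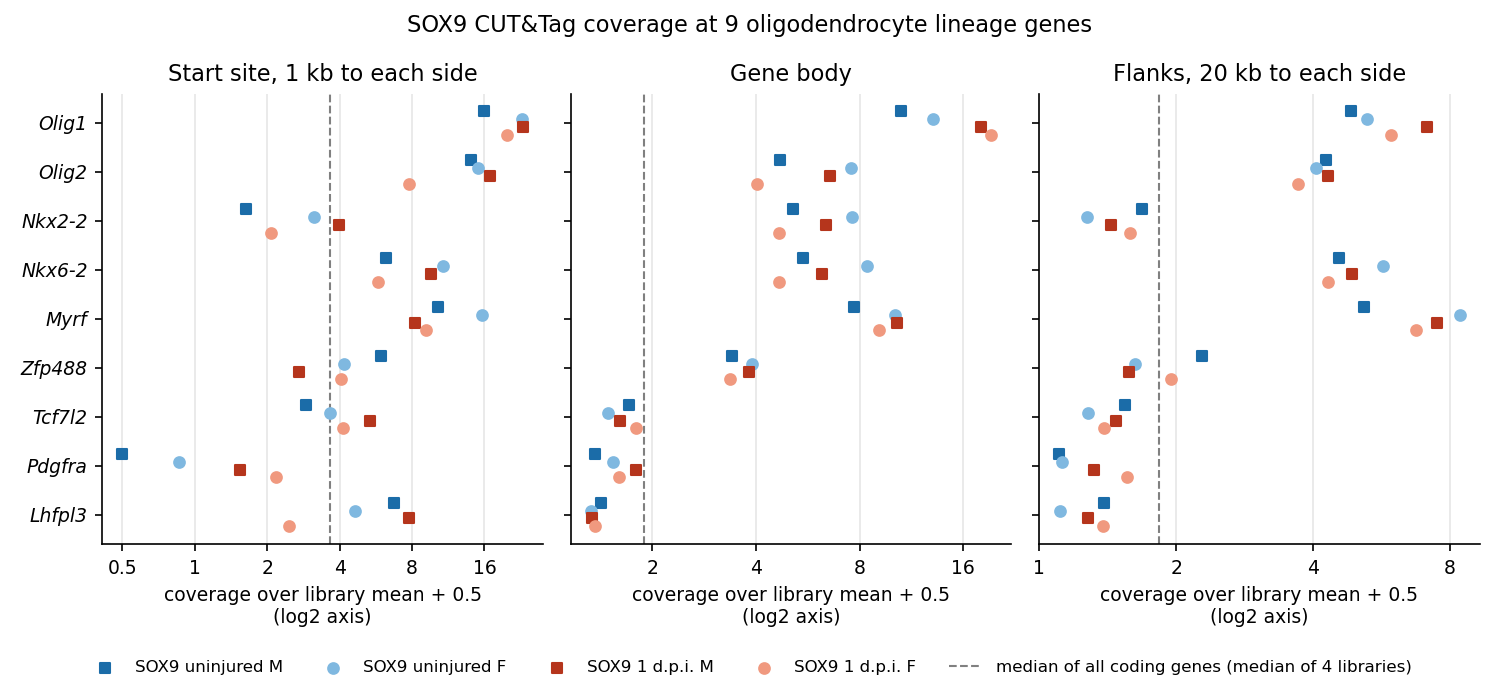
Coverage over the library mean plus 0.5 (horizontal log2 axes, which differ in range between panels) for the 9 genes in 3 windows, with 1 point for each of the 4 SOX9 libraries, squares for M and circles for F. Dashed lines give the median of all coding genes, and Olig1, Olig2, Nkx6-2 and Myrf lie right of it in each panel.

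None of the 9 genes passed the test for a change at 1 d.p.i. in any window. At start sites 8 of the 9 reached the minimum level and were tested, and 0 were called by limma at an adjusted p under 0.05, against 1 call among 15972 coding genes (0.00626%). Both 1 d.p.i. libraries were above both uninjured ones at 1 of the 8 (7.38% of all genes tested) and below them at 2 (14.9% of all). Over gene bodies 8 were tested and 0 called, as were 0 of 13779 genes (0%). There 2 of the 8 lay above without overlap (12% of all genes) and 0 below (18% of all). In the flanks 5 were tested and 0 called, against 7 of 13333 genes (0.0525%), with 1 above without overlap (9.7% of all) and 0 below (17% of all). At an unadjusted p under 0.05 the 9 genes also gave 0 calls in the 3 windows. Over all genes tested there were 273 (1.71%), 535 (3.88%) and 410 (3.08%). At such shares 0 calls among so few genes says little.

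The median log2 change of those tested was −0.24 at start sites, 0.03 over bodies and −0.06 in flanks, beside −0.08, −0.05 and −0.06 over all genes tested. The intervals were wide. Standard errors of the log2 change ran from 0.64 to 0.73 at the start sites and from 0.19 to 0.44 over the bodies. At the Olig1 start site the 95% interval of −1.22 to 1.55 includes log2 changes of −1 and 1, so 0 calls at start sites says little about changes of that size. Over the bodies the wide intervals pass −1 or 1 but not both. At Olig1 the body interval of −0.41 to 1.74 includes a change of 1 but not of −1. At Nkx6-2 the body interval of −1.24 to 0.58 includes −1 but not 1. There 0 calls says little about changes of that size in the direction included. The width depends on the setting. The standard error of 0.71 at the Olig1 start site was 0.37 with no filter and 2.1 with 8 libraries. It was 0.31 with the median scaling, which was chosen after the data were seen. In the fit used here, narrower intervals within −1 to 1 were found for the bodies of Zfp488 (−0.58 to 0.53), Tcf7l2 (−0.38 to 0.56) and Pdgfra (−0.26 to 0.71). The same holds for the flanks of Olig2 (−0.63 to 0.51), Nkx6-2 (−0.79 to 0.49), Myrf (−0.67 to 0.89) and Zfp488 (−0.51 to 0.24). These limits depend on the setting too. With 8 libraries the standard errors were 1.03, 0.54 and 0.13 for these bodies and 1.37, 0.93, 0.77 and 1.34 for these flanks, so that for all but the Pdgfra body the interval passes −1 or 1.

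**Figure D3:**
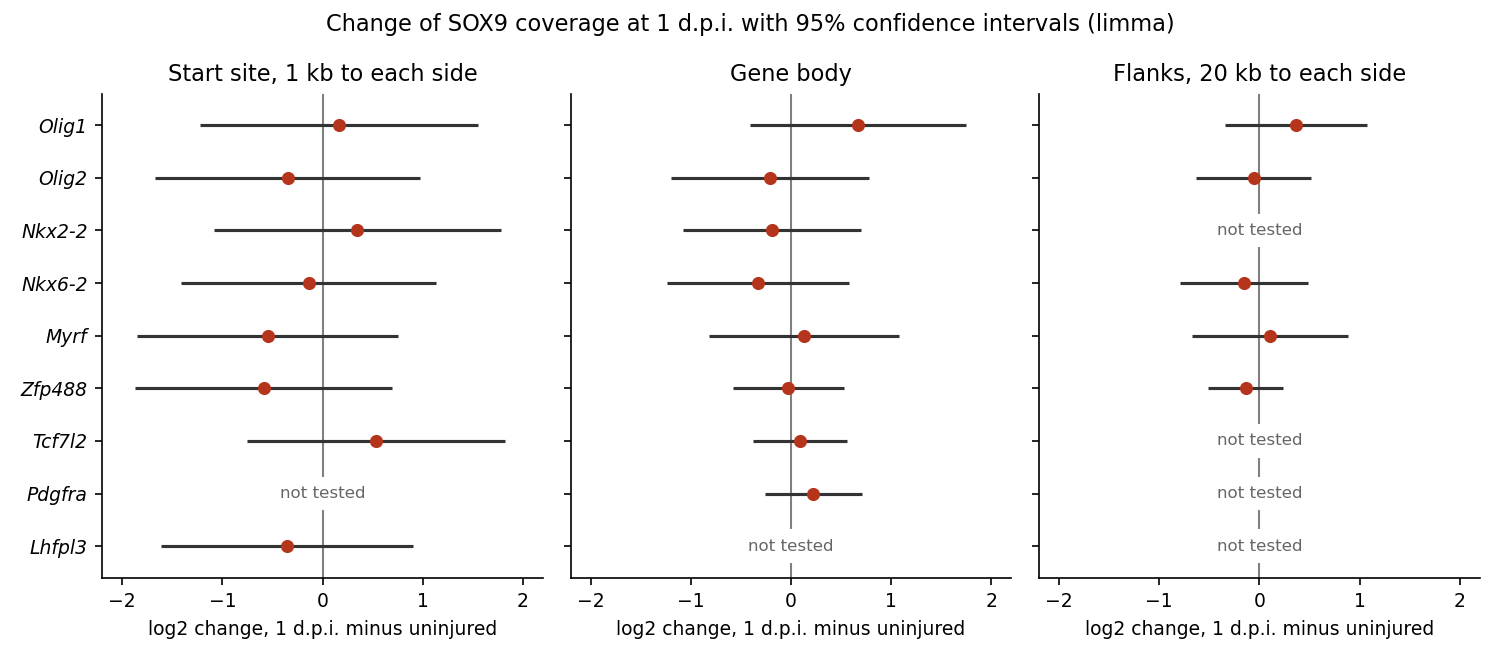
Log2 change of SOX9 coverage at 1 d.p.i. relative to uninjured cords (horizontal axis, on log2 of coverage plus 0.5) for the 9 genes in 3 windows, with points for the limma estimate from 2 libraries a group and lines for its 95% confidence interval. Each interval shown includes 0, and genes under the minimum mean level are marked as not tested.

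Across the loci, from 20 kb before to 20 kb after each gene, 182 of 1204 tiles (15.1%) had a mean level of at least 3 and were tested. By gene, 65 of 73 tiles reached this level at Myrf, 35 of 44 at Nkx6-2, 25 of 43 at Olig1 and 17 of 44 at Olig2. In contrast, 12 of 58 did at Nkx2-2, 9 of 52 at Zfp488, 9 of 233 at Tcf7l2, 2 of 87 at Pdgfra and 8 of 570 at Lhfpl3. Genome-wide the share was 5.53%. Of the 182 tiles 0 were called by limma, against 70 of 150752 in the genome (0.0464%), and 7 (3.85%) had an unadjusted p under 0.05, beside 6201 (4.11%) of all tested tiles. Of the 7, 2 had positive and 5 negative changes, beside 3310 and 2891 of all tested tiles. Of the 5, 3 lay at Nkx6-2, with neighbouring tiles among them. The libraries at 1 d.p.i. were above without overlap at 37 of the 182 and below at 32, shares of 20.3% and 17.6% beside 15.4% and 16.5% of all tested tiles. By gene, the tiles above and below were 10 and 2 at Olig1, 3 and 4 at Olig2, and 2 and 3 at Nkx2-2. They were 2 and 11 at Nkx6-2, 12 and 11 at Myrf, and 3 and 0 at Zfp488. For Tcf7l2 they were 1 and 1, for Pdgfra 0 and 0, and for Lhfpl3 4 and 0. Neighbouring tiles share fragments and are not separate measurements.

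Start sites differ in base composition, and coverage moved with it over all genes. Start sites rich in CpG (at least 50% GC and at least 0.6 of the CpG expected from it) had a median level of 8.21, and the others 1.79. Olig1, Olig2, Nkx2-2, Nkx6-2, Tcf7l2 and Pdgfra were in the CpG-rich class, and Myrf, Zfp488 and Lhfpl3 were not. Within its own class, Olig1 was at the 88.6th percentile, Olig2 at the 73.5th and Nkx6-2 at the 45.8th. Tcf7l2, Nkx2-2 and Pdgfra were low for CpG-rich start sites, at the 14.9th, 7.85th and 1.56th percentiles. Myrf was at the 91.5th percentile of its class, Lhfpl3 at the 74.2nd and Zfp488 at the 67.1st. The Lhfpl3 start site, at 0.57 of the CpG expected, was just under the cut of 0.6. Its mean level of 4.91 was below the median of the CpG-rich class, so its standing depends on the cut. The part of base composition in these levels was not tested further.

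Sequences at the summits show where SOX-type letters stand in the highest stretches. Windows of 200 bp centred on each tile's summit were searched on both strands. The patterns were ACAATG and ACAAAG, cores bound by SOX proteins, and TGANTCA. The last takes in the AP-1 site TGA(G/C)TCA, but also TGAATCA and TGATTCA. Of the highest tiles of the 9 loci, 3 held ACAATG or ACAAAG, and of the 6 highest tiles of each locus 10 of 54, beside 20.9% of the 150752 tested tiles. TGANTCA was in 1 of the 9 and 4 of the 54, beside 6.08% of all. In the windows of the Olig1 and Zfp488 loci it read TGAGTCA. In those of the Nkx6-2 locus it read TGAATCA, which is not the AP-1 site. The share of all tiles with TGA(G/C)TCA alone was not counted. Neither start-site tile of Olig1 or Olig2 held any of these patterns. The Tcf7l2 intron held ACAATG 3 times, of which a pair faces each other across 4 bases. Shown here on the plus strand of mm10, with ACAATG and ACAAAG and their reverse complements in capitals, are summits outside exons from tiles named above. TGANTCA, which the Gm15966 and Zfp488 windows hold, is left in lower case.
Tcf7l2 intron, chr19:55788396-55788595: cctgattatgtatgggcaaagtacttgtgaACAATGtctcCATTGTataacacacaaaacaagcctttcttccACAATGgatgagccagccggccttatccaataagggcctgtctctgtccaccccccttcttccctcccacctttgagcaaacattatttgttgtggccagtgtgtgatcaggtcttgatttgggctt
Myrf locus, Tmem258 intron, chr19:10204787-10204986: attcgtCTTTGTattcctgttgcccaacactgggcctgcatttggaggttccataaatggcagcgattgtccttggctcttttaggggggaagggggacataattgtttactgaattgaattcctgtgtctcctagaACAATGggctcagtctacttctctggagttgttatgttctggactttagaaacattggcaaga
Myrf intron, chr19:10232653-10232852: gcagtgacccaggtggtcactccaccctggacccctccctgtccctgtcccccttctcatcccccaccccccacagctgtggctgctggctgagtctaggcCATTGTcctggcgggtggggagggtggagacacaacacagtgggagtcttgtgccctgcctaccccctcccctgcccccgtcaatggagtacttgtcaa
Zfp488 intron, chr14:33974820-33975019: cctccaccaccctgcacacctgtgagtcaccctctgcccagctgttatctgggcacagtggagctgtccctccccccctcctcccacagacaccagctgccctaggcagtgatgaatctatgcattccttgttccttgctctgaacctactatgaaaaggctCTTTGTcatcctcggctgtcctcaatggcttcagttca
Nkx2-2 intron, chr2:147180675-147180874: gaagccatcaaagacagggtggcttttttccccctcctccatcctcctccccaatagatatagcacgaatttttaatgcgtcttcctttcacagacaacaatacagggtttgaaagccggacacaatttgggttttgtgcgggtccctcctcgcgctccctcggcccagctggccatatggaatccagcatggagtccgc
Before Olig1, intergenic, chr16:91266053-91266252: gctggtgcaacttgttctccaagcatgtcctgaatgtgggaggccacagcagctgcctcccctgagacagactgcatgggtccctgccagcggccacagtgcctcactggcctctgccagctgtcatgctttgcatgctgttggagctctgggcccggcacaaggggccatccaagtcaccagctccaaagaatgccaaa
After Olig1, Gm15966 intron, chr16:91280677-91280876: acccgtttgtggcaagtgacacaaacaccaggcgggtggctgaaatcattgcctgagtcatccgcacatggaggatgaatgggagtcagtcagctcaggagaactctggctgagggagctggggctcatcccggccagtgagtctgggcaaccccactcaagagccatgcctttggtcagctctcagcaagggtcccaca
After Olig2, intergenic, chr16:91233597-91233796: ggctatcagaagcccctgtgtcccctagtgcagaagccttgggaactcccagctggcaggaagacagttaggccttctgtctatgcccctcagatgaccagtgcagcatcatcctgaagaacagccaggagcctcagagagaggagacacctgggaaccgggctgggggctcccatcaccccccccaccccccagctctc
The windows shown at Nkx2-2, Olig1 and Olig2 hold neither SOX core, which says only that these letters are not in these 200 bases. The next highest Nkx2-2 tile, its neighbour in the intron (chr2:147181001-147182000), holds ACAATG in its window, which is not shown. A match describes the letters and is not evidence of a bound site. Among the 6 highest tiles of Lhfpl3, 2 have summits in tandem repeats, with 54 and 43 distinct 8-base words among 193 positions, against 193 at the Tcf7l2 summit above. The third highest Tcf7l2 tile is likewise repetitive, with 81.

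Other lists of genes placed these levels among cell types and lineage stages. In the 8 lists, 101 genes were named, of which 87 were tested at start sites, 79 over bodies and 68 in flanks. Of these 0 were called by limma in any window, and 2 (2.3%), 1 (1.27%) and 1 (1.47%) had an unadjusted p under 0.05, beside 1.71%, 3.88% and 3.08% of all genes tested. Of the 17 other transcriptional regulators of the lineage, the start sites of Sox10, which drives oligodendrocyte differentiation, and Yy1 were best covered. Sox10 had 28.4 and 31.3 in uninjured M and F and 23.1 and 12 in 1 d.p.i. M and F. Yy1 had 20.3, 35.2, 22.6 and 15.7. Both mean levels were above that of Olig1. Among 14 signalling molecules of progenitors, Lingo1 (6.13, 13.8, 7.27 and 14.0) and Pdgfa (8.25, 12.4, 12.7 and 7.13), which encodes a ligand of the Pdgfra receptor, led.

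The 16 myelin and oligodendrocyte genes had a median start-site level of 7.21 over the 4 libraries and a median log2 change of −0.08. Of the 16, Cnp, an enzyme of myelin (19.6, 32.8, 33.0 and 23.8), was the highest. Over the other lists the median start-site change ran from −0.35 (progenitor-domain factors) to 0.50 (microglia and macrophage genes). Differences between the lists were not tested. The medians of the lists were lower for 14 astrocyte genes (3.33), 10 microglia and macrophage genes (2.15), 8 endothelial and mural genes (1.26) and 11 progenitor-domain factors of the ventricular zone (1.19), and 5.55 for 11 neuron genes. The other regulators of the lineage had 6.95, the signalling molecules 5.33 and the 9 genes themselves 4.91. In the astrocyte list Glul (9.86, 22.3, 21.5 and 10.8) and Slc1a2 (13.3, 12.7, 18.1 and 10.6) led. The leading neuron genes were Syt1 (mean 9.82) and Elavl3 (8.87), the vascular ones Pdgfrb (2.2) and Cldn5 (2.17), and the progenitor-domain ones Irx3 (5.75) and Nkx2-9 (3.31). Among the microglial genes Spi1 had a mean of 5.15. Coverage by SOX9 CUT&Tag is not expression, and start-site levels in these lists do not measure how many cells of a type were present.

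The coding genes whose profile was nearest to the median of the 9, by Euclidean distance over 12 log2 levels (4 SOX9 libraries in 3 windows), were Ddx28 (distance 1.19), 1810037I17Rik (1.21) and Arhgef19 (1.27).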

How the data were processed

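SOX9 CUT&Tag was analysed in 4 SOX9 libraries and 4 secondary-only controls. The authors demultiplexed the reads with deML, aligned them to mm10 with Bowtie2 2.5.4, removed duplicates with Picard 3.4.0 and called peaks with SEACR 1.3 per the labels and methods. The deposited signal is whole-number coverage of each library, not scaled for depth. Fragments were counted as rises of coverage. Log2(coverage over the autosomal mean + 0.5) of the 4 SOX9 libraries was tested with limma 3.58.1 (R 4.3.3) with a mean-variance trend, for windows with a mean of at least 1 and tiles of at least 3, two-sided, with Benjamini-Hochberg adjustment over all windows tested. Other steps ran in Python 3.11.15 with pandas 2.3.3, pysam 0.24.0, numpy 2.4.6 and scipy 1.17.1. Tested on simulated data, the fit missed nearly all known changes at start sites and the smaller ones over bodies, and recovered those of the flanks better. Changes are on the log2(value + 0.5) scale, which understates those of low windows. The genes, lists and tests were chosen with earlier results of these data known. Named were the 9 genes, the highest tile of each locus, tiles called in any setting or with an unadjusted p under 0.05, and some further high tiles chosen after their values were seen, of each list the called genes and 1 or both of the 2 with the highest mean start-site level, and the 3 nearest profiles. Alternatives covered scaling, pseudocount, filter, depth, window size, start site, pairing, controls and each SOX9 library left out. The letters M and F stand for sex, and males and females are different animals. P-values rest on 2 libraries a group. For its sequencing experiments the paper gives 2 to 4 pooled animals per condition, as many females as males, but not how many made up each library.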

Additional observations from a re-analysis of the deposited data

Results flagged for a closer look

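In several windows the M and F libraries moved in opposite directions between conditions. With 1 library for each sex and condition, how far the sexes differ was not tested, and this cannot be told apart from differences between animals or libraries. The values below are the log2 change in M minus the log2 change in F.

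At start sites the difference was 0.75 at Olig1, 1.22 at Olig2, 1.87 at Nkx2-2, 1.52 at Nkx6-2 and 1.12 at Lhfpl3. Over gene bodies it was 1.39 at Olig2, 1.03 at Nkx2-2, 1.04 at Nkx6-2, 0.57 at Myrf, 0.37 at Zfp488 and −0.35 at Tcf7l2. In the flanks it was 0.15 at Olig2, 0.50 at Nkx6-2, 0.86 at Myrf and −0.80 at Zfp488. In the highest tile of the locus it was 0.79 at Olig1, 2.79 at Nkx2-2, 1.55 at Myrf, 1.73 at Zfp488, 0.84 at Tcf7l2 and 3.16 at Pdgfra.

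Opposite directions were also common over all genes. They were seen at 66.0% of the start sites tested, 57.8% of the bodies and 63.5% of the flanks, beside 5 of 8, 6 of 8 and 4 of 5 of the genes described here. The median log2 change at start sites was 0.43 in M and −0.57 in F over all genes tested.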

How the results depend on the processing

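Over the alternatives, 277 of 304 recomputed window changes of the 9 genes kept their sign. None passed the threshold, which says little at start sites and over bodies with wide intervals. Of the 21 changes, 7 kept their sign in every alternative, and of the 9 highest tiles 4 did. The causes were not tested. Limits include 1.48 to 5.74 fragments in a mean 2-kb window and 2 libraries a group.

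With libraries thinned to the smallest, the sign turned at the start sites of Nkx2-2 (−0.083) and Lhfpl3 (0.44), the Zfp488 body (0.22) and the Olig2 flanks (0.019). It also turned for Nkx2-2 at 0.5 kb to each side (−0.64), for the Olig2 flanks at 50 kb (0.15) and for the Zfp488 body scaled to the median of tested windows (0.012), a setting chosen after seeing the data.

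With 1 SOX9 library left out, start-site changes ran from −0.10 to 0.43 (Olig1), −0.91 to 0.21 (Olig2), −0.12 to 0.82 (Nkx2-2), −0.53 to 0.25 (Nkx6-2), −0.85 to −0.25 (Myrf), −0.87 to −0.30 (Zfp488), 0.35 to 0.72 (Tcf7l2) and −1.19 to 0.48 (Lhfpl3). Body changes ran from 0.51 to 0.82 (Olig1), −0.56 to 0.14 (Olig2), −0.47 to 0.10 (Nkx2-2), −0.64 to −0.018 (Nkx6-2), −0.063 to 0.33 (Myrf), −0.12 to 0.070 (Zfp488), −0.010 to 0.19 (Tcf7l2) and 0.13 to 0.31 (Pdgfra). Flank changes ran from 0.24 to 0.50 (Olig1), −0.17 to 0.054 (Olig2), −0.31 to 0.0074 (Nkx6-2), −0.24 to 0.46 (Myrf) and −0.38 to 0.11 (Zfp488). Highest tiles ran from −0.51 to 0.030 (Olig1), −1.04 to −0.11 (Olig2), −1.46 to 0.39 (Nkx2-2), 0.23 to 0.98 (Nkx6-2), −0.081 to 1.06 (Myrf), −0.23 to 0.91 (Zfp488), −0.67 to −0.11 (Tcf7l2), 0.56 to 2.34 (Pdgfra) and −1.17 to 0.10 (Lhfpl3). The lone library of a group was then assumed to vary like the others.

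Counts over all genes moved more. Start sites called numbered 1, and 0 with a trimmed mean of log ratios, no filter, 8 libraries, thinned libraries or any SOX9 library left out (range 0 to 0). They numbered 2 at the start of the transcript with the longest coding sequence and 8 (7 up, 1 down) with the median scaling. Bodies called numbered 0, but 140 (72 up, 68 down) with the trimmed mean, and 0 to 261 with 1 library left out. Flanks called numbered 7, but 0 with the trimmed mean or 8 libraries, 2 thinned, 3 at 10 kb, 18 at 50 kb, 37 with the median scaling, and 0 to 42 with 1 library left out. Tiles called numbered 70, but 37 at a minimum of 5, 24 with the trimmed mean, 0 with 8 libraries, and 7 to 617 with 1 library left out. Of the tiles in the 9 loci, 0 to 2 were called with 1 library left out.

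With sex as a replicate block, 1 start site, 247 bodies, 4 flanks and 29 tiles were called, and of the 9 genes 0. Libraries of the same letter did not deviate together (r from −0.25 to −0.04 across genes or tiles, which are not independent). With the pairing crossed, chosen after seeing the data, 0 bodies and 7 flanks were called. With controls pooled, their level in the loci was 1.94 in place of 2.16, within 1 SD.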
